A study of Rattus norvegicus with 44 samples.

Results

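The cytosolic ribosomal protein genes were the genes of the array whose platform symbol begins with Rpl or Rps followed by a digit, with the ribosomal kinase genes (Rps6k) and pseudogenes left out. This gave 62 genes of the 10411 named genes in the table: 35 proteins of the large subunit, 25 of the small subunit, and 2 paralogues (Rpl36al and Rpl3l). A gene was read from its brightest probe. By accession, the probes of Rpl37 and Rpl36al now carry the symbols Rpl37l1 and Rpl36al1, and the platform symbols were kept. 20 of the 62 had more than 1 probe, and 84 probes covered them in all.

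The cytosolic ribosome joins a small subunit, which reads the messenger RNA, to a large subunit, which forms the peptide bonds. Each protein of the core particle is held in a fixed ratio to the others, and most of their messenger RNAs start with a run of pyrimidines, the terminal oligopyrimidine tract, through which mTOR signalling and the La-related protein LARP control their translation. Lymphocytes raise ribosome production when they are activated, whereas red cells lose their ribosomes as they mature.

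RNA from choroid plexus, the tissue that secretes the cerebrospinal fluid, and from trunk blood was hybridised to one-colour Agilent arrays in 11 groups of 4. The rats were male Sprague-Dawley animals of the NCTR strain, 3 months old, that had received saline, environmentally-induced hyperthermia (EIH) or amphetamine in a neurotoxic dose (AMPH), and tissue was taken after 3 h or 1 day. Choroid plexus was measured in saline, EIH and AMPH rats at 3 h and in EIH and AMPH rats at 1 day, with the tissue of 3 rats pooled on each array. Blood was measured in saline, EIH and AMPH rats at both times, with 1 rat on each array. No choroid plexus saline group at 1 day was among the samples analysed here, so the AMPH arrays of that tissue at 1 day were set against EIH only. The amphetamine dose and the heat protocol are not stated in the labels.

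Some labels need care. The 4 choroid plexus EIH arrays at 1 day are called controls in their titles while their source and treatment labels say EIH, and the latter were used. Some rat numbers of these pools are also given for blood EIH rats at 1 day and another for an AMPH pool at 3 h. None is given for a saline sample. The tissue tag of the blood samples mentions a brain region while the protocol says trunk blood. The 14 choroid plexus epithelium markers had a summed intensity of 365846 to 380593 on the choroid plexus saline arrays and 9051 to 12879 on the blood saline arrays, and the 11 erythroid markers had 4165 to 5110 and 317030 to 338349. Rat numbers recur, since 5 numbers appear in more than 1 pool, which touches 7 pools, and 17 of the numbers given for blood rats also appear in a pool. Some numbers recur across times or treatments, which 1 rat cannot supply, so a shared number is not sure to be a shared rat. Within the choroid plexus EIH group at 1 day, replicates 2 and 3 list a number in common, and so do replicates 3 and 4. If these are shared rats, those pools are not independent. P-values measure the spread between pools in choroid plexus and between rats in blood. The main fits took the pools as separate and the tissues as unpaired.

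The deposited values are intensities that the authors had already normalised, and with arrays it is their number, 4 in each group, that sets the precision. The 3 h and 1 day arrays carry separate scales. Array medians were 139 to 145.8 at 3 h and 164.8 to 171 at 1 day, so a level at 3 h is set beside a level at 1 day without a test. Values below are log2 intensities, and a difference is a difference of group means on that scale with its standard error (SE). A gene is called when its adjusted p from limma, with Benjamini-Hochberg adjustment over all genes tested, was under 0.05. Ribosomal protein genes were among the brightest on the array, with 57 of 62 at a mean of 12 or more. On 17 of them a group mean reached 15.5, close to the array maximum, where a difference is compressed. Rpl8, Rpl14, Rpl37, Rpl41, Rps6, Rps16 and Rps23 stood within 0.01 of the array maximum on all 4 arrays of at least 1 group, so their levels there are lower bounds.

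The start regions of some of the genes the results turn on are shown for the pyrimidine run that most of these messenger RNAs carry, with Rpl3 as one that has only a short run. RefSeq promoter sequences (rat build GRCr8) matched 52 of the 62 genes by current symbol. Each line below gives 30 bases on the strand of the gene, with the longest unbroken run of C and T that reaches within 20 bases of the annotated start in capitals. The first 5 genes are among those that fell in blood at 3 h, and the last 4 are among those called between the tissues.
Rpl3 (chr7:113507969-113507998, minus strand): ctgctcgaTCTCTatcggcggcgtgtggcg
Rpl5 (chr14:1995218-1995247, minus strand): tccagccaCTCTCTTTCCCacgtcgcttgc
Rps3 (chr1:163195776-163195805, minus strand): gcgagccaCTTCCTTTCCTTTCagcggcgc
Rps18 (chr20:4933735-4933764, plus strand): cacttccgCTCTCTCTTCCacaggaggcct
Rps13 (chr1:180009638-180009667, minus strand): ctacctcgTTCTCTCTTTgcttccagacct
Rps15 (chr7:10068098-10068127, minus strand): tgacaccgCTTCCTTTTCCCagcagccgcc
Rpl10a (chr20:6390521-6390550, plus strand): accttctgCCTTCTTTTCCggttcccgcag
Rps7 (chr6:50999425-50999454, minus strand): gagctgtgTCTCTTTCTaagccggcactcc
Rpl36al (chr6:93392232-93392261, minus strand): tccatccgTCCCTTTCCTgttcggcgcgtg

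A run of at least 8 such bases was present in 42 of the 52 matched promoters (80.8%), against 5706 of 27405 other promoters (20.8%). Runs of A and G, the same search on the other strand, were present in 4 of the 52 (7.69%) and in 22.3% of the others. The longest run in Rpl3 was 5 bases and in Rpl5 was 11. A run is a description of these letters, and a missing one says only that it is absent from this window.

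The first question, how blood carried these transcripts after heat or amphetamine, is taken first at 3 h. After EIH, 12 of the 62 genes fell in blood and none rose, beside 12.5% of all genes called in either direction, 6.91% called lower and 5.54% called higher. 58 of 62 had a negative difference, and the median was -0.37, against 0.08 over all genes tested. All 4 EIH arrays lay below all 4 saline arrays for 44 of the 62 genes (13.0% of all genes did so). All 35 large subunit genes had a negative difference and 8 of them were called. Of the 25 small subunit genes, 22 were negative and 4 were called. Among the 50 genes whose groups both stayed below 15.5, the median was -0.40 with 10 called. Among the 12 near the upper end it was -0.17 with 2 called.

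Rpl3, a large subunit protein that reaches the peptide-bond-forming centre, had the largest called fall. It stood at 12.86, 12.81, 12.84 and 12.71 on the blood saline arrays, at 11.69, 12.07, 11.72 and 11.45 after EIH, and at 11.74, 11.79, 11.78 and 11.51 after AMPH. Every treated array lay below every saline array, and the EIH and AMPH ranges overlapped. The difference was -1.07 (SE 0.20, adjusted p = 0.0014, limma), a 2.11-fold lower level after EIH, and -1.11 (SE 0.20, adjusted p = 0.0033) after AMPH. The call held in all 17 alternative settings for each.

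Rpl5 carries the small ribosomal RNA of the large subunit, with Rpl11, and binds Mdm2 when ribosome assembly fails. It stood at 14.60, 14.46, 14.59 and 14.48 in saline blood and at 13.61, 13.99, 13.83 and 13.51 after EIH, with no overlap. Its difference was -0.80 (SE 0.18, adjusted p = 0.0052, limma), held in all 17 settings, and its 2 other probes gave -0.94 and -0.93. The partner Rpl11 differed by -0.28 (SE 0.13, adjusted p = 0.198, limma) and was not called.

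The remaining called genes after EIH were Rps13, Rpl6, Rpl14, Rpl27, Rps3, Rps28, Rps18, Rpl9, Rpl8 and Rpl13a. Their differences lay between -0.63 and -0.38. Rps13, a small subunit protein, stood at 13.48, 13.39, 13.47 and 13.51 in saline blood and at 12.78, 12.95, 12.91 and 12.68 after EIH. The ranges did not overlap, and its difference was -0.63 (SE 0.18, adjusted p = 0.022, limma). Rpl6 and Rpl14, both of the large subunit, differed by -0.63 (SE 0.19) and -0.61 (SE 0.18). Rpl13a, which can leave the ribosome to silence inflammatory messenger RNAs, differed by -0.38 (SE 0.12, adjusted p = 0.048), and the call held in 5 of 17 settings.

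Genes of the family with other roles did not all pass the test. Rps6, the subunit protein phosphorylated downstream of mTOR, had 15.90, 15.86, 15.79 and 15.71 in saline blood and 15.34, 15.58, 15.48 and 15.35 after EIH, and its difference was -0.38 (SE 0.13, adjusted p = 0.054, limma). The groups did not overlap, and the saline level sat near the array maximum. Rps19, in which inherited defects cause Diamond-Blackfan anaemia, differed by -0.43 (SE 0.15, adjusted p = 0.067). Rpl22 differed by -0.64 (SE 0.24), Rps27 by -0.53 (SE 0.18), and Rps4x, the X-linked form, by -0.48 (SE 1.13), none of them called. The Rps4x SE takes in, through the shared spread, 7.57 on EIH replicate 1 and 9.17 on AMPH replicate 4 at 1 day. At 3 h Rps4x read 13.99 to 14.13 in saline and 13.43 to 13.69 after EIH, without overlap. Rpl39 and Rpl7 each differed by -0.34 and Rpl26 by -0.14, also not called. Rpl10 differed by -0.02 (SE 0.16), and Rpl3l, the striated muscle paralogue of Rpl3, by 0.57 (SE 0.39), neither called. The paralogue Rpl36al differed by -0.62 (SE 0.21, adjusted p = 0.061, limma). Rps14 and Rpl3l were the 2 genes for which every EIH array lay above every saline array (12.1% of all genes), and neither was called.

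The count of 12 depended on single arrays. It was 2 when EIH replicate 4, saline replicate 1 or saline replicate 3 was left out, 4 when EIH replicate 1 or saline replicate 2 was, and 8 when EIH replicate 3 was. It was 5 with only the compared groups in the fit and 25 with an intensity trend and robust spread. With that trend, 606 of 9892 genes were called higher and 748 lower, against 548 and 684 in the main fit. Without the array of saline replicate 4 at 1 day, which enters only through the shared spread, the count of ribosomal protein genes was 20. The median difference stayed between -0.43 and -0.30 in all of these fits.

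**Figure D1:**
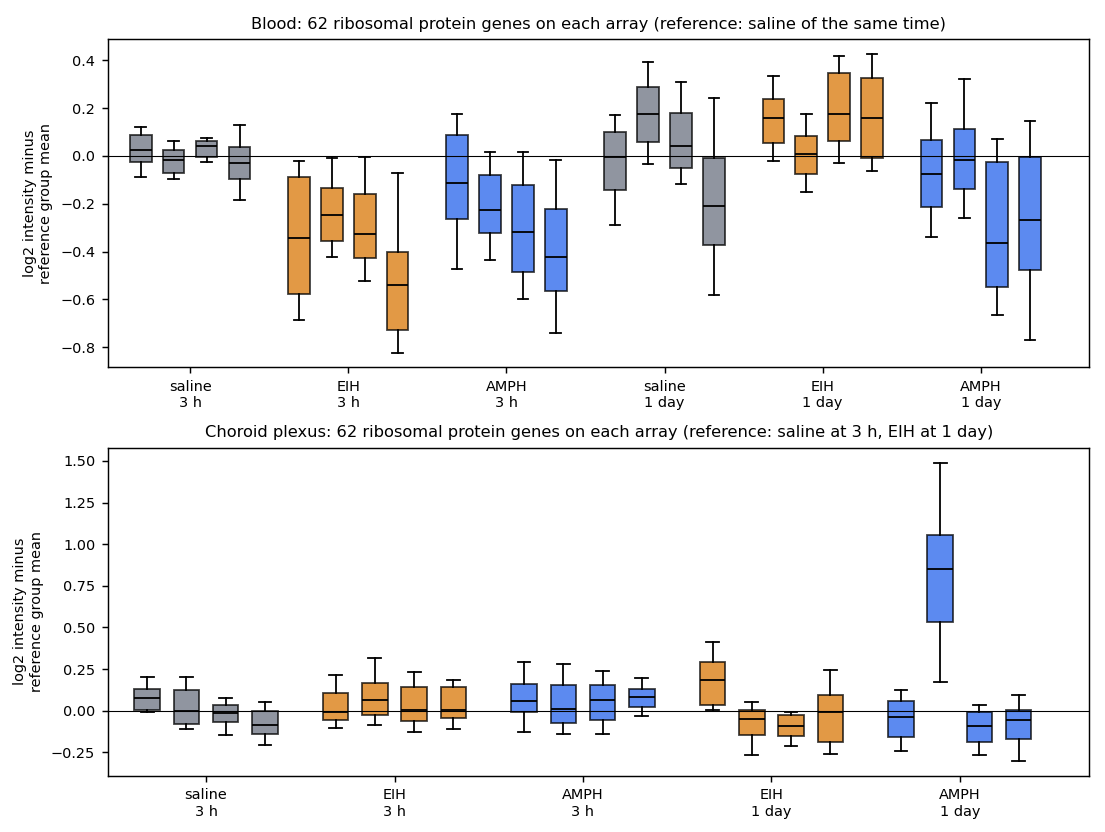
Log2 intensity of the 62 ribosomal protein genes on each of the 44 arrays, minus the mean of the reference group (saline of the same time in blood; saline at 3 h and EIH at 1 day in choroid plexus). Each box is 1 array and spans the quartiles over genes, the bar is the median and the whiskers reach the 10th and 90th percentiles. In blood at 3 h the EIH medians lay at -0.25 to -0.54 and the AMPH medians at -0.11 to -0.42, below the saline medians of -0.03 to 0.04. The choroid plexus AMPH replicate 2 array at 1 day stood at 0.85.

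After AMPH at 3 h, 5 of the 62 genes fell in blood and none rose, beside 8.38% of all genes called in either direction, 3.43% called lower and 4.95% called higher. They were Rpl3, Rps3, Rpl4, Rps18 and Rpl5. 54 of 62 had a negative difference and the median was -0.25, against 0.01 over all genes. All AMPH arrays lay below all saline arrays for 23 genes (10.2% of all genes). This comparison shares its saline arrays with the EIH comparison.

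Rps3, a small subunit protein at the entry of the messenger RNA channel, stood at 14.53, 14.40, 14.38 and 14.32 in saline blood, at 13.68, 14.05, 13.90 and 13.61 after EIH, and at 13.81, 13.90, 13.64 and 13.60 after AMPH. No treated array reached the lowest saline array. The difference after AMPH was -0.67 (SE 0.18, adjusted p = 0.027, limma) and after EIH -0.59 (SE 0.18, adjusted p = 0.037).
Rpl4, which lines the exit tunnel of the large subunit, stood at 13.88, 13.92, 13.90 and 13.79 in saline blood and at 13.14, 13.49, 13.29 and 13.13 after AMPH. The groups did not overlap, and the difference was -0.61 (SE 0.18, adjusted p = 0.038, limma). After EIH it was -0.51 (SE 0.18), not called. Rps18, in the head of the small subunit, differed by -0.61 (SE 0.18, adjusted p = 0.037) after AMPH, and Rpl5 by -0.60 (SE 0.18, adjusted p = 0.043). Of the 5 calls, Rpl3 alone held in all 17 settings. Leaving out AMPH replicate 3 or 4, or any of saline replicates 1, 2 and 3, left 1 call. There were 2 calls without AMPH replicate 1 and 3 without saline replicate 4.

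The direct comparison of AMPH with EIH in blood at 3 h gave no call (limma, 0 of 62; 1 at an unadjusted p under 0.05, against 9.47% of all genes; 0.0397% of all genes called). The median difference was 0.07. The smallest p was that of Rpl13a, at 0.28 (SE 0.12, adjusted p = 0.491, limma), followed by Rpl13 at 0.23 and Rps26 at 0.59. The 95% interval of the difference was within 1 log2 unit on either side of 0 for 53 of the 62 genes.

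Neighbouring genes of the translation machinery were read from lists chosen for this purpose. Of 11 elongation factor and other pyrimidine-tract genes, 10 had a negative difference after EIH at 3 h and 2 fell, Eef1b2 at -0.87 (SE 0.19) and Hnrnpa1 at -1.11 (SE 0.26), with a list median of -0.45. Of 32 ribosome biogenesis genes, 30 were negative and 4 fell (Utp18, Lyar, Polr1b and Nolc1), with a median of -0.40. Of 33 initiation factors, 1 rose and 4 fell, with a median of -0.16. The 6 ribosomal proteins outside the symbol rule (Rplp0, Rplp1, Rplp2, Rpsa, Fau and Rack1) were all negative, with a median of -0.16 and no call. The 59 mitochondrial ribosomal protein genes tested had a median of -0.31 with 2 up and 14 down, the 37 proteasome subunits -0.12 with 6 down, and the 68 respiratory chain genes -0.15 with 6 down. No test compared the lists.

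White cell markers also differed between the groups in the same arrays, some lower and some higher, and no association by array was tested. The summed intensity of 11 T cell markers was 26277 to 35340 on the saline arrays at 3 h, 5877 to 16339 after EIH and 7372 to 17243 after AMPH, and 8 of the 10 tested fell after EIH. The 4 B cell markers summed to 3675 to 5094 in saline, 1155 to 2236 after EIH and 1705 to 2601 after AMPH. The 10 neutrophil markers summed to 23332 to 37280 in saline, 50985 to 96798 after EIH and 74456 to 125410 after AMPH, and 7 of 10 rose after EIH. The 9 monocyte markers summed to 35175 to 43360 in saline, 55031 to 88646 after EIH and 53839 to 75203 after AMPH, and 3 of 9 rose after EIH. The 9 markers of natural killer and cytotoxic cells summed to 14342 to 22550 in saline and 4855 to 14556 after EIH. The erythroid sum was 317030 to 338349 in saline and 331074 to 341763 after EIH, and the platelet sum 96311 to 109787 and 90505 to 110505. Of the 11 erythroid markers, 1 rose after EIH and 1 fell after AMPH. A sum of intensities rests most on its brightest markers, and a change near the array maximum is compressed. In bulk blood, fewer cells of a type and less RNA per cell cannot be told apart, and the part of these cell markers in the ribosomal result was not tested.

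At 1 day after EIH no ribosomal protein gene was called in blood (limma, 0 of 62; 1 at an unadjusted p under 0.05, against 10.1% of all genes; 0.0512% of all genes called). 51 of 62 had a positive difference and the median was 0.11, against 0.07 over all genes. Rpl3 stood at 12.68, 12.73, 12.28 and 12.10 in saline and at 12.67, 12.40, 12.62 and 12.75 after EIH, and the groups overlapped. Its difference was 0.16 with a 95% interval of -0.26 to 0.58. The 3 smallest p-values were those of Rps26 at 0.98 (SE 0.33), Rps15 at 0.78 (SE 0.41) and Rpl36al at 0.38 (SE 0.21), none called. Rps15 rests on saline replicate 4, which read 9.84 against 12.19 to 12.73 on the other saline arrays. T cell markers summed to 25538 to 34849 in saline and 26673 to 35016 after EIH at this time. All 9 markers of natural killer and cytotoxic cells had a negative difference, with a median of -1.03. All 4 B cell markers had a positive one, with a median of 0.99. Neutrophil and monocyte markers had medians of -0.25 and 0.40, and none of these markers was called.

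The change of the EIH difference from 3 h to 1 day was tested directly in blood. 6 genes had a higher difference at 1 day than at 3 h, Rpl3, Rpl5, Rpl36al, Rpl6, Rps3 and Rpl27, and none a lower one, beside 8.62% of all genes called in either direction and 4.82% called higher. 55 of 62 were positive, with a median of 0.51 against 0.01 over all genes. Rpl3 moved by 1.24 (SE 0.29, adjusted p = 0.014, limma) and Rpl5 by 1.05 (SE 0.25, adjusted p = 0.018), and both held in all 24 alternative settings. Rpl36al moved by 1.00 (SE 0.30) and held in 10 of 24. Over single arrays left out, the count ran from 2 to 8. At 3 h, it was 2 when any of saline replicates 1 to 3, EIH replicate 1 or EIH replicate 4 was left out, and 3 when EIH replicate 3 was. At 1 day, it was 2 when saline replicate 1, saline replicate 4, EIH replicate 3 or EIH replicate 4 was left out, and 3 when EIH replicate 1 was.

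At 1 day after AMPH 1 gene fell in blood, Rps19, beside 1.95% of all genes called in either direction and 0.398% called lower. It stood at 14.42, 14.54, 14.49 and 14.81 in saline, at 14.46, 14.17, 14.40 and 14.44 after EIH, and at 14.06, 14.15, 13.75 and 13.80 after AMPH. The AMPH arrays lay below all saline and EIH arrays. The difference from saline was -0.62 (SE 0.15, adjusted p = 0.037, limma), and it held in 9 of 16 settings. The call was lost without saline replicate 2, 3 or 4 or AMPH replicate 3 or 4, and in the fit of the compared groups alone. 46 of 62 genes had a negative difference and the median was -0.23. The 4 AMPH arrays were uneven, with medians over the family of -0.07, -0.02, -0.37 and -0.27 against saline. T cell markers summed to 11218 to 21002 and neutrophil markers to 29718 to 76866 on these arrays, against 10241 to 31449 for neutrophil markers in saline, and their part was not tested.

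AMPH against EIH at 1 day gave no call (limma, 0 of 62; 24 at an unadjusted p under 0.05 against 11.7% of all genes; 0.0% of all genes called). 59 of 62 differences were negative with a median of -0.32, against -0.01 over all genes, and all AMPH arrays lay below all EIH arrays for 22 genes (6.37% of all genes). The 3 smallest p-values were those of Rpl27 at -0.67 (SE 0.17, adjusted p = 0.144, limma), Rpl5 at -0.67 (SE 0.18) and Rpl35a at -0.59 (SE 0.16). Rpl5 stood at 14.94, 14.78, 14.99 and 14.97 after EIH and at 14.54, 14.62, 13.80 and 14.05 after AMPH, without overlap. The change of the AMPH difference between 3 h and 1 day gave no call (limma; 3 at an unadjusted p under 0.05, against 13.5% of all genes; 0.379% of all genes called), with a median of 0.07. The change of AMPH against EIH also gave none (limma; 17 at an unadjusted p under 0.05, against 13.0% of all genes; 0.124% of all genes called), with a median of -0.39.

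**Figure D2:**
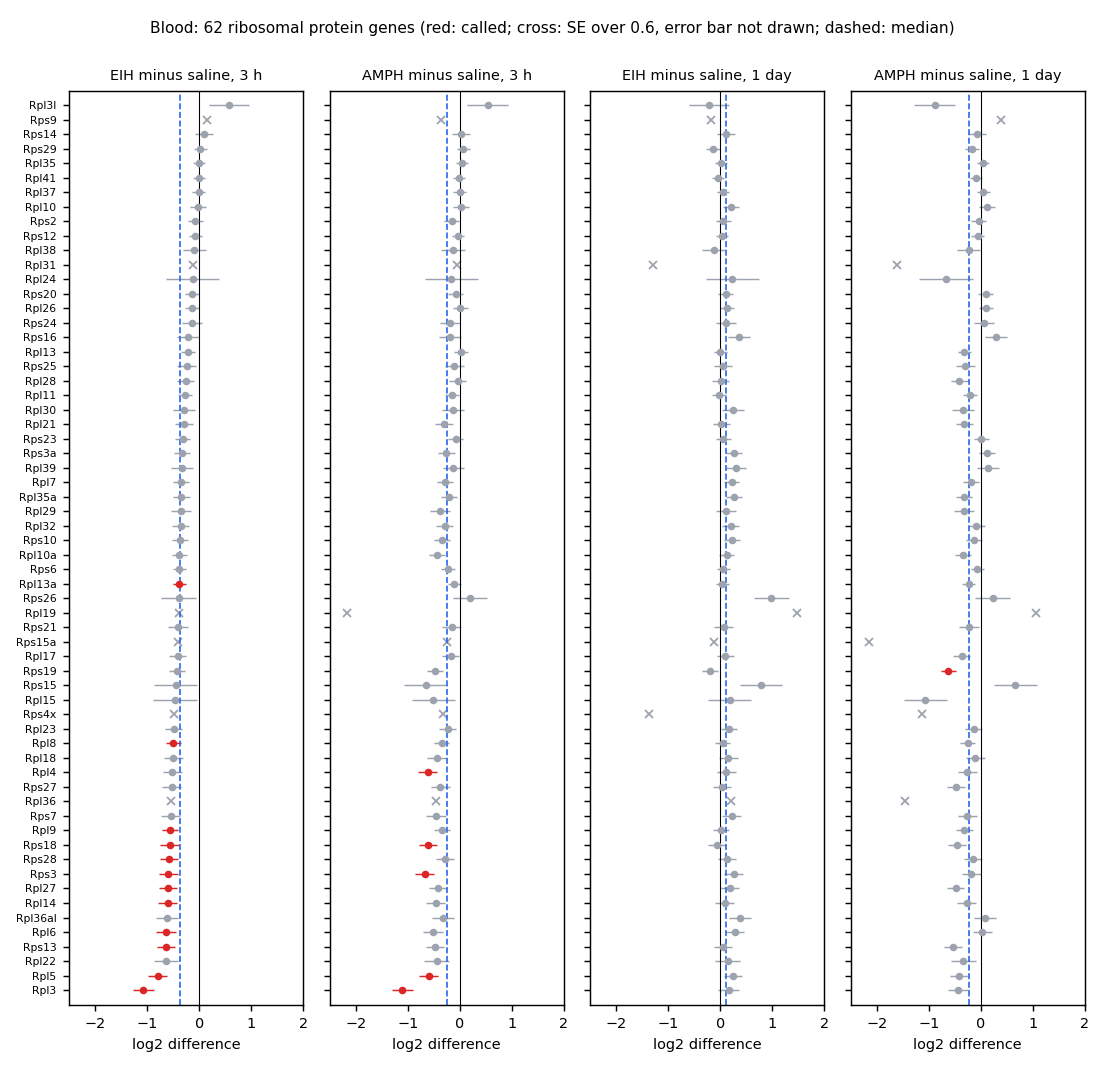
Log2 difference from saline of the same time for each of the 62 ribosomal protein genes in blood, with its SE, ordered by the EIH difference at 3 h. Red points were called, crosses are genes whose SE was over 0.6, and the dashed line is the median over genes (-0.37 and -0.25 at 3 h, 0.11 and -0.23 at 1 day).

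**Figure D3:**
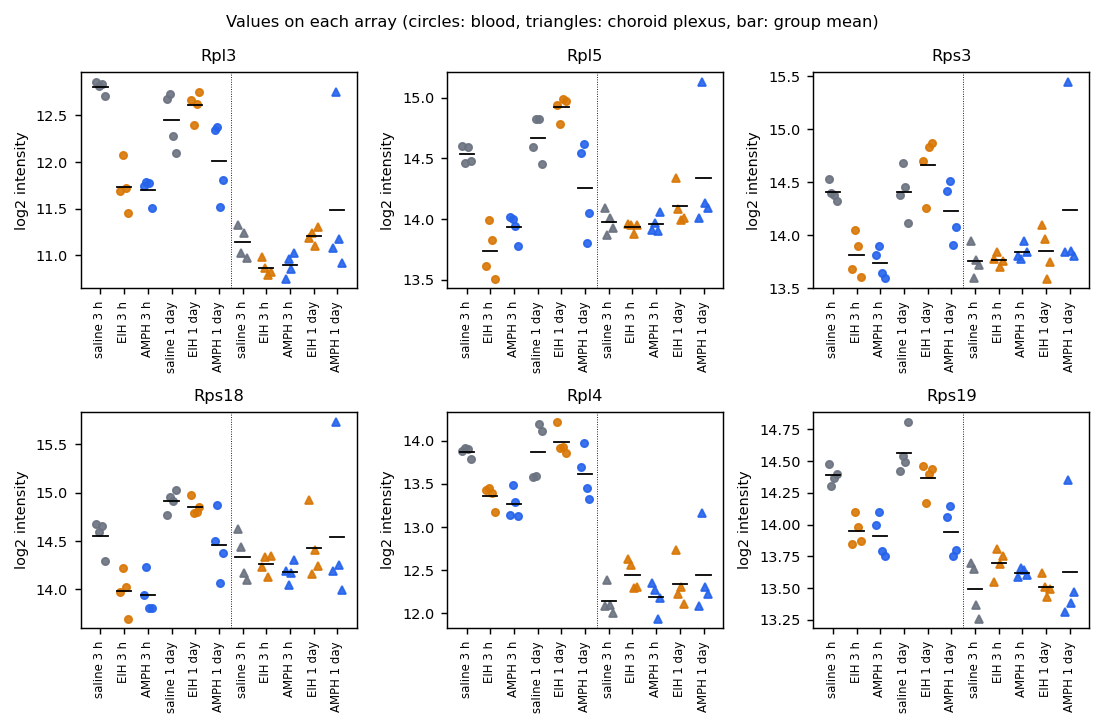
Log2 intensity of 6 ribosomal protein genes on each array, with blood as circles on the left of the dotted line, choroid plexus as triangles on the right, and a bar at the mean of each group of 4. The blood EIH and AMPH arrays at 3 h lie below the blood saline arrays for each of the 6 genes, and the choroid plexus groups at 3 h overlap for most of them. Scales at 3 h and 1 day are separate.

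In choroid plexus no ribosomal protein gene was called in any treatment comparison. The SE of each gene drew on all choroid plexus groups, the uneven AMPH group at 1 day among them. Rpl29 had a standard deviation of 0.02 in saline and 0.08 after EIH at 3 h, against 0.66 after AMPH at 1 day. Its EIH arrays at 3 h (12.59 to 12.76) all lay above its saline arrays (12.43 to 12.48), at 0.19 (SE 0.23). The absence of a call here thus does not show an unchanged level. EIH against saline at 3 h gave 0 calls of 62 (limma; 0 at an unadjusted p under 0.05, against 12.9% of all genes; 0.341% of all genes called), with a median difference of 0.02 against 0.01 over all genes. AMPH against saline gave 0 calls (limma; 1 at an unadjusted p under 0.05, against 14.9% of all genes; 0.156% of all genes called), with a median of 0.05 against 0.03. AMPH against EIH gave 0 calls (limma; 0 at an unadjusted p under 0.05, against 2.83% of all genes; 0.00974% of all genes called). The 95% interval of the difference lay within 1 log2 unit on either side of 0 for 58, 57 and 59 of the 62 genes, and half-widths had a median of 0.38. Rpl14, Rps6, Rps16 and Rps23 count among these, though they were at the array maximum on all 4 arrays of each group. Rpl8 and Rpl41 were so in both treated groups. At the maximum an interval cannot show a change.

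Some of the genes that fell in blood at 3 h are given here for choroid plexus, and the others are not listed. Rpl3 read 11.33, 11.02, 11.24 and 10.97 in saline, 10.98, 10.86, 10.79 and 10.82 after EIH and 10.75, 10.96, 10.85 and 11.03 after AMPH. The groups overlapped, and the EIH difference was -0.28 with a 95% interval of -0.86 to 0.30. Rpl5 read 14.09, 13.87, 14.01 and 13.93 in saline and 13.96, 13.95, 13.88 and 13.95 after EIH, a difference of -0.04 with an interval of -0.43 to 0.35. Rps3 differed by 0.01 (-0.55 to 0.57) and Rps18 by -0.07 (-0.67 to 0.52). Rpl27 read 13.07 to 13.21 in saline, 13.22 to 13.27 after EIH and 13.30 to 13.42 after AMPH. Its treated arrays thus all lay above saline, at 0.12 (SE 0.17) after EIH and 0.23 (SE 0.17) after AMPH, not called. Rps28 read 14.47 to 14.75 in saline and 14.77 to 15.04 after AMPH, at 0.21 (SE 0.21), also not called.

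None of the genes with the smallest p-values in choroid plexus was called. Rpl3l differed by -1.01 (SE 0.60) after EIH and by -1.52 (SE 0.60) after AMPH, not called, and saline replicate 3 read 11.08 against 7.01 to 7.83 on the other saline arrays. Rps12 differed by 0.96 (SE 0.65) after EIH, and its saline replicate 3 read 10.92 against 15.08 to 15.15. Rpl4 differed by 0.30 (SE 0.20) after EIH, and by -0.26 between AMPH and EIH. Rpl35a and Rpl10 differed by 0.23 and 0.36 after AMPH, and Rpl38 by 0.15 between AMPH and EIH. Rps9 differed by -4.31 (SE 2.24) between AMPH and EIH, not called, and is described with its array values at the end.

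The difference between the tissues in their response was tested at 3 h. Rpl14, Rps6, Rps16 and Rps23 were at the array maximum on every choroid plexus array at 3 h, so their values here come from blood alone. For EIH, choroid plexus minus blood was positive for 61 of 62 genes with a median of 0.42, against -0.04 over all genes, and 1 gene was called higher, Rpl8, beside 6.0% of all genes called in either direction and 3.74% called higher. Rpl8, which sits by the peptide-bond-forming centre, stood at 15.72, 15.62, 15.63 and 15.44 in saline blood and at 14.93, 15.20, 15.18 and 15.11 after EIH. In choroid plexus it stood at 15.98, 15.97, 15.61 and 15.71 in saline and at 15.97, 15.98, 15.99 and 15.98 after EIH, where all 4 arrays were at their maximum. The blood groups did not overlap and the choroid plexus groups did. The difference of differences was 0.66 (SE 0.18, adjusted p = 0.019, limma), and the choroid plexus term is bounded by the top of the scale. The call was lost without choroid plexus saline replicate 3 (adjusted p = 0.0534; 0.00307 to 0.0698 over the 27 settings) and without the pools that repeat a rat. With shared rat numbers as a random block, 5 genes were called in place of 1. Leaving out choroid plexus saline replicate 2 or blood EIH replicate 3 gave 2 calls, leaving out blood EIH replicate 2 gave 4, and a fit without choroid plexus AMPH replicate 2 at 1 day gave 10, or without blood saline replicate 4 at 1 day 4.

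For AMPH, 56 of 62 differences between tissues were positive with a median of 0.32 and no call (limma; 16 at an unadjusted p under 0.05, against 17.9% of all genes; 3.11% of all genes called). Rpl8 differed by 0.52 (SE 0.18), Rps13 by 0.67 (SE 0.24) and Rpl3l by -2.06 (SE 0.71). Rpl8 was at the array maximum on all 4 choroid plexus AMPH arrays. For Rpl3l, choroid plexus saline replicate 3 read 11.08 against 7.01 to 7.83 on the other saline arrays. Without choroid plexus AMPH replicate 2 at 1 day in the shared spread, 4 genes were called. At 1 day, AMPH against EIH differed between the tissues by a median of 0.47, positive for 59 of 62, with no call (limma; 22 at an unadjusted p under 0.05, against 8.2% of all genes; 0.0% of all genes called). The smallest p-values were those of Rpl27 at 0.88 (SE 0.23), Rps13 at 0.88 (SE 0.24) and Rpl35a at 0.70 (SE 0.19). Their differences were 0.21, 0.29 and 0.11 in choroid plexus and -0.67, -0.59 and -0.59 in blood. The choroid plexus values include AMPH replicate 2, which stood apart by 0.85 over the family and is described next.

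Choroid plexus AMPH against EIH at 1 day had 52 of 62 positive differences, a median of 0.12 and no call (limma; 1 at an unadjusted p under 0.05, against 5.43% of all genes; 0.0% of all genes called). The smallest p-values were those of Rpl10 at 0.42 (SE 0.19), Rps7 at 0.45 (SE 0.22) and Rpl24 at 0.31 (SE 0.16). The positive direction rested on 1 array. AMPH replicate 2 lay above the EIH mean by a median of 0.85 over the family, while the other AMPH arrays lay at -0.04, -0.09 and -0.06. Without it, 44 of 62 differences were negative and the median was -0.09. Rps7 read 11.22, 12.48, 11.19 and 11.24 on the AMPH arrays, and Rpl3 read 11.08, 12.75, 11.18 and 10.92. On that array the epithelium markers summed to 183145, against up to 376932 in its group, and the erythroid, platelet, neutrophil and monocyte markers were the highest of all choroid plexus arrays (26275, 14157, 5778 and 40171). The T cell markers were at most 953 on the AMPH arrays. The part of these other cells in the value was not tested.

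The second question was how the tissues differed at rest. In saline rats at 3 h, 38 of the 62 genes were lower in choroid plexus than in blood and 2 were higher, beside 56.2% of all genes called in either direction, 24.3% called lower and 31.9% called higher. The median difference was -0.63, against 0.15 over all genes, and all choroid plexus arrays lay below all blood arrays for 44 genes (24.4% of all genes) and above them for 5 (32.2%). Large subunit genes had a median of -0.60 with 24 of 35 lower, and small subunit genes -0.80 with 14 of 25 lower. Among the 48 genes with both groups below 15.5, 34 were lower and 1 higher, with a median of -0.79. Near the upper end, 14 genes had a median of -0.06. The part of the different cell makeup of the tissues in these values was not tested.

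Rps15, in the head of the small subunit, differed most. It stood at 10.43, 10.30, 10.47 and 10.55 in choroid plexus and at 12.84, 12.87, 12.90 and 12.76 in blood, with more than 2 log2 units between the nearest arrays. The difference was -2.40 (SE 0.12, adjusted p = 1.4e-06, limma), a 5.29-fold lower level, and its other probe gave -1.89. Rpl10a, of the large subunit, stood at 12.23, 12.11, 12.12 and 12.25 against 14.13, 14.11, 14.16 and 14.10, a difference of -1.95 (SE 0.11). Rps7 stood at 11.06, 11.11, 11.18 and 11.01 against 12.81, 12.88, 13.02 and 13.08, a difference of -1.86 (SE 0.12). None of these groups overlapped.
Rps4x, Rpl4, Rpl29, Rpl3 and Rps25 had differences of -1.88 to -1.57, and these 8 genes, the largest called negative differences without overlap, were called in all 17 alternative settings. Rps12 differed by -1.92 (SE 0.93) and was not called, with 1 choroid plexus array at 10.92 and the others at 15.08 to 15.15. Of the genes read for their roles, Rps19 differed by -0.89 (SE 0.15), Rpl5 by -0.56 (SE 0.12), Rpl11 by -0.50 (SE 0.12), Rpl22 by -1.56 (SE 0.15), Rpl39 by -1.17 (SE 0.11), Rps27 by -0.77 (SE 0.12), Rpl10 by -0.62 (SE 0.12), Rpl26 by -0.40 (SE 0.11) and Rpl7 by -0.34 (SE 0.12), all called, though Rpl7 in only 7 of 17 settings. Rpl13a differed by -0.13, Rps6 by 0.17 and Rpl3l by 0.01, none called, and Rps6 was at the array maximum on all 4 choroid plexus arrays.

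Rpl14 and Rpl36al were the 2 genes higher in choroid plexus. Rpl14, a large subunit protein, stood at 15.98, 15.97, 16 and 15.99 in choroid plexus, the array maximum on each, and at 14.83, 14.74, 14.87 and 14.74 in blood. It was at least 2.28-fold higher, with a measured difference of 1.19 (SE 0.11, adjusted p = 3.9e-05, limma). Rpl36al stood at 14.25, 14.48, 14.35 and 14.19 against 13.86, 13.76, 13.83 and 13.68, without overlap, a difference of 0.53 (SE 0.13, adjusted p = 0.0072, limma). Its other probe gave 0.32 and was not called.

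**Figure D4:**
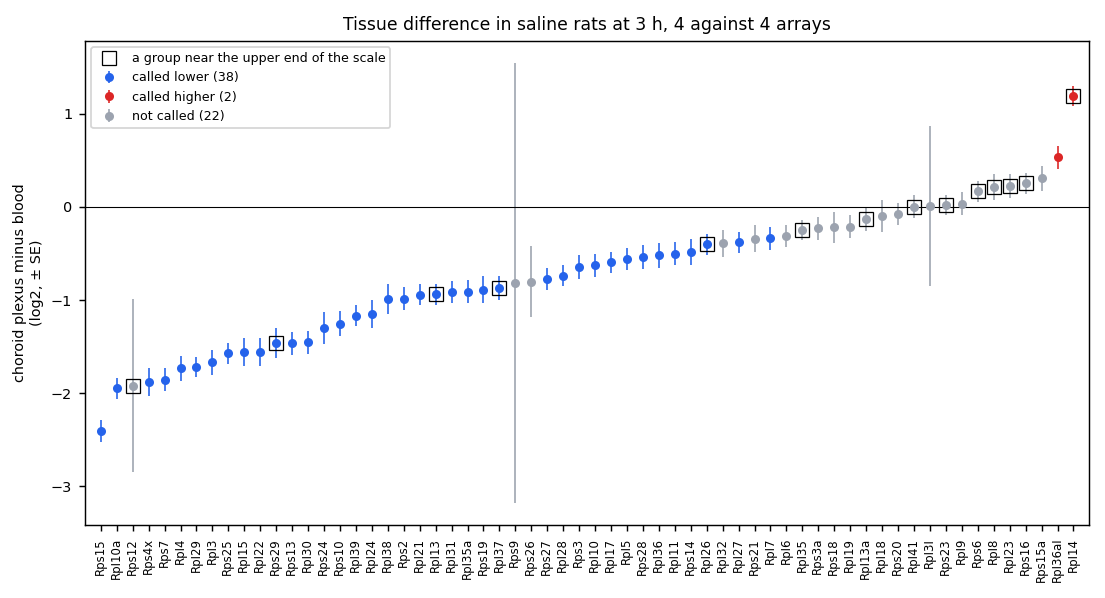
Difference of choroid plexus minus blood in saline rats at 3 h for the 62 ribosomal protein genes, on the log2 scale with its SE, ordered by size. Blue points were called lower (38), red points called higher (2) and grey points not called, and squares mark genes with a group mean of 15.5 or more. The long bars belong to Rps9, Rps12 and Rpl3l, whose replicates spread widely.

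Other large complexes stood on the other side of 0 in this comparison. The 59 mitochondrial ribosomal protein genes had a median of 0.89 with 46 higher and 3 lower, the 37 proteasome subunits 1.01 with 27 higher and 6 lower, and the 68 respiratory chain genes 1.85 with 53 higher and 4 lower. The 6 ribosomal proteins outside the symbol rule followed the cytosolic set, with 5 lower and a median of -1.49, led by Rplp0 at -2.68 (SE 0.14). The 33 initiation factors had 17 higher and 9 lower, with a median of 0.66. Of the 11 elongation factor and other pyrimidine-tract genes, 4 were lower and 1 higher, and Pabpc1, the poly(A)-binding protein, differed by -3.29. These are counts and medians, and no test compared the lists.

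The median tissue difference was also negative in the 4 treated pairs, though not every gene was. Estimates were positive for 22 and 19 of 62 genes after EIH and AMPH at 3 h, and for 7 and 25 at 1 day. Choroid plexus minus blood had 28 genes lower and 9 higher after EIH at 3 h with a median of -0.28. The counts were 27 and 6 after AMPH at 3 h (median -0.42), 40 and 1 after EIH at 1 day (-0.79), and 9 and 1 after AMPH at 1 day (-0.18). Of all genes in these 4 pairs, 26.6%, 25%, 26.0% and 20.6% were called lower, 32.5%, 32.1%, 31.8% and 24.1% higher, and 59.1%, 57.1%, 57.8% and 44.8% in either direction. The last pair holds the array that stands apart, and without it 23 were lower and 1 higher with a median of -0.41. Leaving out another choroid plexus AMPH array gave 5 calls, as did leaving out blood AMPH replicate 1 or 2. Rpl10a, Rpl37, Rpl38, Rpl4, Rps10, Rps15, Rps25, Rps29 and Rps7 were called lower in all 5 pairs, and 33 of 62 had a negative estimate in all 5. Rpl14 was called higher in all 5. The saline and treated pairs at each time use different arrays.

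Second probes were available for 20 genes, giving 22 pairs with the brightest probe. In the tissue comparison 19 of 22 pairs had the same sign, and in 3 the gap was 1 or more. Rpl15 read -1.56 on its brightest probe and 0.83 (SE 0.14, adjusted p = 0.0012, limma) on the other, so its direction depends on the probe. Rps15a read 0.31 and -0.99, and Rps20 read -0.08 and -1.12. In blood after EIH at 3 h, 21 of 22 pairs had the same sign, and the gap was 1 or more for Rpl28 alone, at -0.26 and -1.55. Probes differed more in other comparisons. In blood at 1 day, 16 of 22 pairs had the same sign after EIH and 14 of 22 after AMPH, with gaps of 1 or more in 4 and 6 pairs. In the tissue pairs at 1 day, 16 of 22 had the same sign after EIH and 13 of 22 after AMPH, with such gaps in 8 and 6 pairs.

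Rps9, a small subunit protein read by 1 probe, split widely between replicates in every group. It is counted among the 62 genes in each comparison and was called in none of the treatment comparisons. On the blood saline arrays at 3 h it read 6.84, 13.54, 13.83 and 5.36. In each of the 6 blood groups 2 arrays lay between 12.93 and 14.03 and 2 between 5.36 and 8.05. In choroid plexus the values ran from 3.77 to 14.61, and the 4 AMPH arrays at 3 h were all at 7.42 or below. It was the only ribosomal protein gene whose range passed 2 log2 units in all 11 groups, which 5 of all 10411 genes did.

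**Figure D5:**
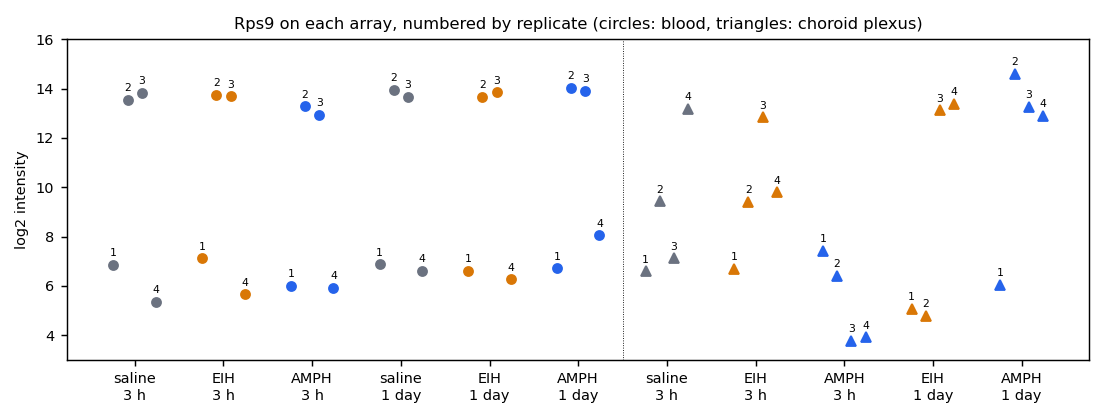
Log2 intensity of Rps9 on each of the 44 arrays, with the replicate number above each point, blood as circles on the left of the dotted line and choroid plexus as triangles on the right. In every blood group replicates 2 and 3 lie between 12.93 and 14.03 and replicates 1 and 4 between 5.36 and 8.05.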

How the data were processed

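The table held probe intensities of 44 one-colour arrays (Cy3, Agilent Quick Amp labelling of total RNA, per the labels' protocols), on a linear scale and already normalised by the authors as deposited. The scanner software, background correction, normalisation and rule for blank cells are not stated in the labels or files. Quantiles were near identical among the 24 arrays from 3 h, and likewise among the 20 from 1 day. Blank cells made up 3.05% of choroid plexus and 8.57% of blood values, and none among the 62 genes. Of 14055 probes, 12926 had 1 gene symbol and 1129 had none, and symbols were updated by accession except for the 62 genes.

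The deposited intensities were floored at 1 and converted to log2 here. A gene was its brightest probe by mean log2 over all arrays. Groups were fitted with limma 3.58.1 in R 4.3.3 (lmFit, eBayes), all choroid plexus groups together, all blood groups together, all 11 for differences between tissues in response, and the pair alone for tissue comparisons. Genes needed at least 2 values in each compared group. P-values were adjusted over all genes tested. Intervals are 95%. Python 3.11.15 with pandas, scipy and matplotlib made the tables and figures. Replicates were numbered in accession order, and no label ties a number across groups. The fits were tested on simulated data.

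Named genes were, per treatment comparison, up to 5 called rises and 5 called falls or else the 3 smallest p-values, for the tissue comparison the 8 largest called differences in each direction without overlap, a set read for their roles, and genes whose probes disagreed. Genes named beyond this rule were chosen after their values were seen. The members and lists were chosen with earlier results of these data known, and the tissue comparisons in treated rats, the differences between times, and the fits without choroid plexus AMPH replicate 2 or blood saline replicate 4 at 1 day were added after seeing the data. Alternatives were other scalings, a filter on the 25% dimmest genes, variance models, array weights, the mean over probes, single arrays left out, pools that repeat a rat left out, and shared rat numbers as a random block.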

Additional observations from a re-analysis of the deposited data

Results flagged for a closer look

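In 152 groups of 4 values read for the named genes or the family median, 13 had an array far from the other 3 by Dixon's criterion, and chance flags about 5% of groups. On the choroid plexus AMPH arrays at 1 day, replicate 2 stood apart for the family median (0.85 against -0.09 to -0.04), Rps7 (12.48 against 11.19 to 11.24), Rpl24 (14.18 against 13.27 to 13.33) and Rpl27 (14.13 against 13.15 to 13.27). On the choroid plexus saline arrays, Rps12 read 10.92 on replicate 3 against 15.08 to 15.15, and Rpl11 read 14.67 on replicate 2 against 14.38 to 14.41. Smaller isolated values in choroid plexus at 3 h were Rpl10 at 14.50 (AMPH replicate 4), Rpl3l at 7.77 (EIH replicate 3), Rpl8 at 15.98 (AMPH replicate 2), within 0.01 of the other arrays, and a family median of 0.06 (EIH replicate 2). In blood they were Rps15 at 12.72 and a family median of 0.01 against 0.16 to 0.17 (both EIH replicate 2 at 1 day), and Rps20 at 15.19 (saline replicate 2 at 3 h).

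A test of the difference itself separated 2 responses for 7 values. Rpl8 differed between the tissues in its EIH response at 3 h by 0.66. The EIH response in blood differed between 1 day and 3 h for Rpl3 (1.24), Rpl5 (1.05), Rpl6 (0.91), Rpl36al (1.00), Rps3 (0.85) and Rpl27 (0.78), with limma and Benjamini-Hochberg adjustment.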

How the results depend on the processing

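No analysis paired by replicate number was run, because the numbers were given in accession order and no label ties them across groups. In every blood group, Rps9 was high on replicates 2 and 3 and low on 1 and 4. Whether the numbers share a factor across groups was not tested. A random replicate block over shared rat numbers, some of which cannot be the same rat, was fitted, with 38 lower and 2 higher in the tissue comparison and 5 calls in place of 1 for the EIH difference between tissues. Counts called under other settings were as follows. Array weights gave 1 and 2 in choroid plexus after EIH and AMPH at 3 h. Of all genes there, 535 of 10260 were called higher and 566 lower after EIH. After AMPH, 665 of 10262 were called higher and 679 lower. Array weights also gave 24 and 13 in blood after EIH and AMPH at 3 h, 0 after AMPH at 1 day and 2 for AMPH against EIH at 1 day. They gave 16 and 12 for the differences between tissues, 29 for the AMPH tissue pair at 1 day and 17 for the EIH difference between times. The intensity trend with robust spread gave 25, 11, 3 and 3 for those 4 blood comparisons, 9 and 1 between tissues, 21 for the EIH difference between times and 2 for AMPH against EIH between times. Only the compared groups gave 5, 2 and 0 in blood after EIH and AMPH at 3 h and AMPH at 1 day, and 3 for EIH between times, as did the mean over probes (3). Without the dimmest genes, 19 were called in blood after EIH and 6 between tissues, where quantile normalisation gave 2 and leaving out pools that repeat a rat gave 0 (24 in the AMPH tissue pair at 1 day). The filter on the dimmest genes called 628 of 7742 genes higher and 796 lower in blood after EIH at 3 h.

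With single arrays left out, counts ran from 2 to 20 and 1 to 7 in blood after EIH and AMPH at 3 h, 0 to 1 in choroid plexus after AMPH at 3 h and in blood after AMPH at 1 day, 0 to 10 and 0 to 4 between tissues after EIH and AMPH, 5 to 24 in the AMPH tissue pair at 1 day, and 2 to 8 for EIH between times. Signs that turned were Rps12 in choroid plexus after EIH with single arrays left out (-0.09 to 1.32, negative without saline replicate 3), Rpl3l between tissues (-0.09 with the block, -0.93 to 0.43 with single arrays left out, negative without choroid plexus saline replicate 3 or blood saline replicate 2 or 3), Rpl10 in blood after EIH (0.00 with one 75th percentile, 0.01 with one median, -0.07 to 0.02 with single arrays left out) and Rps15a between tissues with the mean over probes (-0.34). The cause was not tested. Saturation near the upper end, the separate scales of the 2 times and 4 arrays a group limit these values.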

Other observations

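The counts of isolated values give the noise of these probes. An array lay over 2 log2 units from the median of the other arrays of its group for 11 of the 62 genes, Rps9 among them. Among bright genes (mean of 12 or more), such values were 0.478% of those of the ribosomal protein genes and 0.724% of those of 433 other genes. Rpl19 read 7.07 on blood AMPH replicate 2 at 3 h against 14.15 to 14.43 on the others, and 9.29 on blood saline replicate 2 at 1 day against 14.29 to 14.94. Rpl31 read 9.32 on blood EIH replicate 2 and 8.32 on blood AMPH replicate 2 at 1 day, against 15.32 to 15.60 and 15.35 to 15.49. On blood AMPH replicate 4 at 1 day, Rps15a read 7.98, Rps4x 9.17 and Rpl36 8.36, against at least 13.46 on the other arrays of that group. Such values at 1 day also enter the SE of these genes at 3 h through the shared spread. In blood, 61 of 10411 genes had a range above 2 log2 units in all 6 groups, and Rps9 was the ribosomal protein gene among them.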
